A study of Homo sapiens with 27 samples.

Results

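The 4 ID genes (*ID1*, *ID2*, *ID3*, *ID4*), the inhibitory SMAD genes *SMAD6* and *SMAD7*, the pseudoreceptor gene *BAMBI* and the ligand gene *TGFB2* were followed through 21 days of FAK inhibition in uveal melanoma cells. These 8 genes of the TGF-beta and BMP network were taken by symbol from the 61533 genes counted, and all 8 were listed. *ID2* led to their choice, because its level in the inhibitor was above that in control on every day of treatment. The *ID2* values are therefore given as a description of the treatment effect, without a test.

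RNA sequencing was performed on 92.1 cells, an established *GNAQ* mutant uveal melanoma line grown in RPMI with serum. Cells were kept in the vehicle DMSO or in FAKi, the focal adhesion kinase inhibitor VS-4718 at 100 nM, and medium and treatment were renewed at fixed intervals. There were 3 replicate libraries from DMSO at day 0 and 3 from each of DMSO and FAKi at days 3, 7, 14 and 21, 27 in all. All libraries came from this single line, and day 0 had DMSO libraries only. The study's methods give both plating in triplicate and biological replicates of the whole experiment, and the labels do not say which of these the numbered libraries are. The p-values measure the spread between these libraries.

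TGF-beta and BMP ligands bring together type I and type II receptors, which phosphorylate SMAD2 and SMAD3 or SMAD1, SMAD5 and SMAD9, and these enter the nucleus with SMAD4. The ID genes are well-known targets of the BMP branch. They encode helix-loop-helix proteins without a DNA-binding region, which pair with E proteins and keep them off DNA. SMAD6, SMAD7 and BAMBI act as brakes that the same signals induce. TGFB2 is the principal TGF-beta isoform of the fluid inside the eye. In bulk RNA, a change in the number of cells that express a gene and a change in RNA per cell cannot be told apart.

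Total counts were between 12161994 and 43651551 per library, with a median of 24759579. Mitochondrial genes took 5.49% to 26.97% of counts, and this share moved with the groups. It was 18.1%, 9.59% and 8.61% in DMSO and 16.8% to 18.7% in FAKi at day 3, 17.05% to 19.3% and 20.2% to 20.7% at day 7, 21.95% to 26.97% and 20.7% to 22.1% at day 14, and 5.49% to 9.75% and 10.7% to 11.2% at day 21. The pigment cell lineage of the line was seen in 7 marker genes. *PMEL* was between 2613 and 8112 CPM (counts scaled to a common library total) and *SOX10* between 317 and 887 CPM. *DCT* was the lowest of the 7 markers at 2.49 to 28.5 CPM. *KRT5* had no count in any library, and *PTPRC*, *CD3E*, *EPCAM* and *CDH5* were below 0.2 CPM throughout. Other markers were counted in all 27 libraries, with *COL1A1* at 3.13 to 9.90 CPM, *LUM* at 1.43 to 8.66, *CDH1* at 0.284 to 2.05 and the lysosomal gene *CD68* at 23.4 to 124. The 4 immune markers summed to 59.4 to 70.9 CPM in DMSO and 23.4 to 26.6 CPM in FAKi at day 21. This sum was almost all *CD68*, as *CD14* was at most 0.625 CPM in any library. At day 14 the 7 pigment cell markers summed to 9438 to 10083 CPM in DMSO and 12245 to 12803 CPM in FAKi. The part of these shifts in any result was not tested.

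Some libraries stood apart from their labels. Over 16982 genes, FAKi day 7 replicate 1 lay closer to FAKi day 14 replicate 1 than any pair of replicates lay to each other, with a root mean square difference of 0.215 in log2 CPM, against 0.228 for the closest replicate pair. DMSO day 3 replicate 1 lay at 0.261 from DMSO day 0 replicate 3, while replicates of DMSO day 3 lay at 0.475 to 0.806 from each other. Replicates of DMSO day 3, FAKi day 7, DMSO day 14 and DMSO day 21 differed by 0.525 to 0.622 on average, against 0.257 to 0.388 in the other groups. Some results that rest on one of these libraries are given with and without it.

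Expression per kilobase of transcript ordered the 8 genes. *BAMBI* averaged 47.2 ± 9.82 CPM per kb (SD, n = 27 libraries) and *ID3* 43.2 ± 16.8. *ID2* followed at 26.6 ± 14.2, *ID4* at 16.1 ± 7.29 and *ID1* at 12.6 ± 4.39. These 5 genes overlapped with their neighbours within 1 SD. *SMAD7* at 1.84 ± 0.484, *SMAD6* at 0.741 ± 0.319 and *TGFB2* at 0.111 ± 0.0817 CPM per kb were far lower, and *TGFB2* had between 1 and 60 counts per library.

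The genes lie at separate places of the hg38 build, given here by the transcript that was counted. *ID1* (ENSG00000125968.9) spans chr20:31605283-31606515 on the plus strand, *ID2* (ENSG00000115738.10) chr2:8678845-8684453 on the plus strand, *ID3* (ENSG00000117318.9) chr1:23557926-23559501 on the minus strand and *ID4* (ENSG00000172201.12) chr6:19837370-19842197 on the plus strand. *SMAD6* (ENSG00000137834.15) spans chr15:66702236-66782849 on the plus strand, *SMAD7* (ENSG00000101665.10) chr18:48919853-48950965 on the minus strand, *BAMBI* (ENSG00000095739.11) chr10:28677521-28682932 on the plus strand and *TGFB2* (ENSG00000092969.12) chr1:218345336-218444619 on the plus strand. Counts are exonic. Antisense exons of *ID2-AS1* cover 7.1% of the *ID2* exon bases, and *TGFB2* shares 11.9% with *TGFB2-AS1* and 23.4% with *TGFB2-OT1* on its own strand, so the counts of *ID2* and *TGFB2* are less certain than those of the other 6.

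The promoters of the ID genes are shown because their transcripts moved together in part. All 8 genes had an entry in the RefSeq promoter table (GRCh38.p14). The windows below are read 5′ to 3′ on the gene's strand, and positions count back from the RefSeq start. Capitals mark ATTGG, the CCAAT box read on its other strand, and TATAAA, the TATA box, on either strand. The *ID1* and *ID3* windows end at the edge of the counted exon, and the *ID2* stretch lies in a 5′ UTR exon of its counted transcript.
ID1 upstream, chr20:31605039-31605282: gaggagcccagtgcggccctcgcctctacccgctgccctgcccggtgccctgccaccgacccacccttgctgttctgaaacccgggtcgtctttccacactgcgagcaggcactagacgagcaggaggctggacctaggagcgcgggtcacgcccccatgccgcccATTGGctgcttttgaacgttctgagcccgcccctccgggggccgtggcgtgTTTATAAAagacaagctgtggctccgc
ID3 upstream, chr1:23559502-23559751: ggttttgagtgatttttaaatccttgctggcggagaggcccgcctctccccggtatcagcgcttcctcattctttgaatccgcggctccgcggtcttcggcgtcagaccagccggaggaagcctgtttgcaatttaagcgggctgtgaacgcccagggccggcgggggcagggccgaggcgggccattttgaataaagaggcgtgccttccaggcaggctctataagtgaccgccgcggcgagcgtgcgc
ID2 CCAAT stretch, chr2:8681873-8681902: accccgcggggATTGGctgcgaacgcggaa
ID4 CCAAT stretch, chr6:19837139-19837168: ctgcccgcctgATTGGctggccactccaga
ID4 TATA stretch, chr6:19837325-19837354: ccggggcgcacggctcTATAAAtacagctg

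The 8-letter string ATTGGCTG was present upstream of *ID1*, *ID2* and *ID4*, at positions -84, -172 and -220, and in 3.52% of the 35116 promoters in the table on either strand. TATAAA was present at -31 in *ID1*, where its reverse complement overlaps it, at -29 in *ID4* and *TGFB2*, and in 1 of the 3 *SMAD7* windows. It was found in 10.7% of promoters. *ID3* held neither string. GGCGCC, a string known from SMAD binding to BMP target genes, occurred 3 times in the *BAMBI* window and in none of the ID windows, against 16.4% of promoters. The strings were chosen after these letters and the counts had been seen, and a match is a description of letters, not of a bound factor.

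*ID2* was higher in FAKi than in DMSO on all 4 days, and on no day did the libraries of the treatments overlap. At day 3 the DMSO libraries held 31.2, 26.8 and 26.9 CPM and the FAKi libraries 49.0, 58.3 and 43.2 CPM. At day 7 DMSO was at 26.4, 38.5 and 36.1 CPM and FAKi at 114, 68.8 and 58.8 CPM. At day 14 DMSO was at 74.8, 67.1 and 57.6 CPM and FAKi at 112, 108 and 116 CPM. The day 21 libraries were back near the day 3 values, with 36.7, 34.8 and 28.4 CPM in DMSO and 59.0, 56.7 and 55.1 CPM in FAKi.

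The log2 fold changes of *ID2* were 0.84 ± 0.16 (SE), 1.26 ± 0.26, 0.74 ± 0.11 and 0.83 ± 0.13 at days 3, 7, 14 and 21. The largest of them fell to 0.92 without FAKi day 7 replicate 1, the library that resembles day 14. Averaged over the days the effect was 0.91 ± 0.095, or 1.88-fold. It was 0.83 without 3 libraries that stood apart (DMSO day 3 replicate 1, FAKi day 7 replicate 1 and DMSO day 21 replicate 3). These 3 were picked after the data had been seen. *ID2* stayed without overlap on all 4 days when libraries were scaled by their totals alone. These values chose the gene, and no test was applied to them.

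**Figure D1:**
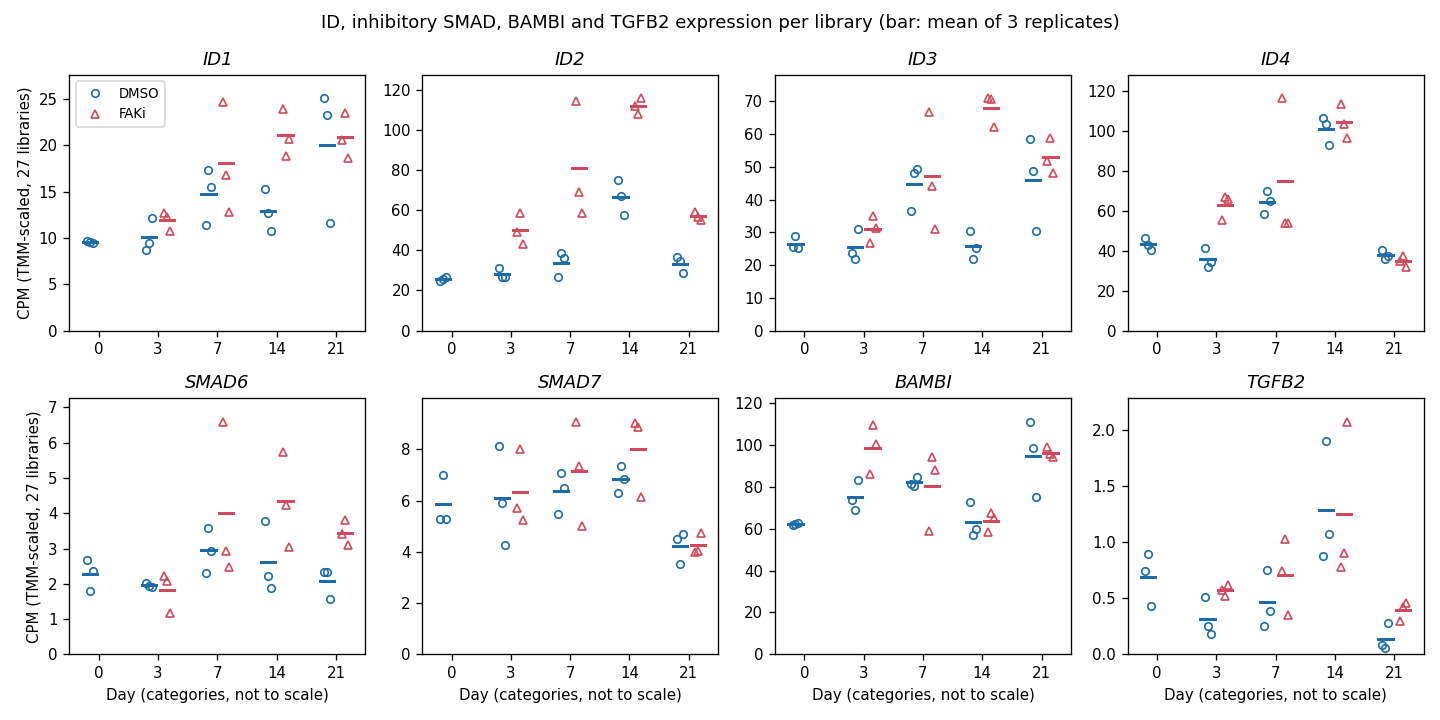
Expression of the 8 genes in CPM (vertical axes, linear and starting at 0) against day (horizontal axes), with one symbol per library, circles for DMSO, triangles for FAKi and bars for the mean of 3 replicates. In *ID2* the FAKi triangles sit above the DMSO circles on every treated day, and in *ID3* the groups separate at day 14, with 62.1 to 71.001 CPM in FAKi against 21.9 to 30.3 CPM in DMSO.

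The ID genes also moved with time in control cells, where the inhibitor played no part. Across the 15 DMSO libraries, 6 of the 8 genes changed between days by the quasi-likelihood test of edgeR (Benjamini-Hochberg adjusted), against 49.9% of the 26193 genes tested. *ID2* was among the 6. The DMSO libraries of days 3 to 21 had also entered its choice, so its p-value here is not independent of that choice. The mean level of *ID2* was 25.7 ± 1.20 CPM at day 0 and 66.5 ± 8.58 CPM at day 14 (SD, n = 3 each), and it returned to 33.3 ± 4.34 CPM at day 21 (adjusted p = 1.9e-05). *ID4* had the same shape, with 43.4 ± 2.94 CPM at day 0, 101 ± 7.00 at day 14 and 37.9 ± 2.26 at day 21 (adjusted p = 1.64e-06). *ID3* peaked elsewhere, at 44.6 ± 7.13 CPM on day 7 and 45.9 ± 14.2 on day 21 around 25.8 ± 4.22 at day 14 (adjusted p = 0.00197).

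*ID1* was at 9.56 ± 0.151 CPM on day 0 and 19.96 ± 7.32 CPM on day 21 in DMSO (adjusted p = 0.00754). *BAMBI* moved from 62.3 ± 0.381 to 94.9 ± 18.2 CPM between the same days (adjusted p = 0.00702). DMSO day 21 replicate 3 was the lowest library of its group in *ID1*, *ID3* and *BAMBI*, and their day 21 means are given with it only. *TGFB2* was highest at day 14, at 1.29 ± 0.543 CPM, and lowest at day 21, at 0.140 ± 0.120 CPM (adjusted p = 0.00509). *SMAD6* (adjusted p = 0.388) and *SMAD7* (adjusted p = 0.14) did not pass. *SMAD7* passed when DMSO day 3 replicate 1 or replicate 3 was left out.

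FAKi at day 14 separated the ID family. *ID3* held 30.3, 21.9 and 25.4 CPM in DMSO and 71.001, 70.7 and 62.1 CPM in FAKi, with all FAKi libraries above all DMSO libraries. The log2 fold change was 1.39 ± 0.12 (SE), a 2.62-fold rise, and *ID3* was the one gene of the 7 tested that was called (edgeR quasi-likelihood test, Benjamini-Hochberg adjusted p = 1.59e-07). A gene was called where the adjusted p reached 0.05 and the absolute log2 fold change exceeded 1, and 0.614% of the 23443 genes tested were called higher. *ID3* kept its call when any 1 of the 6 libraries was left out.

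*ID1* also separated at day 14, with 15.2, 12.7 and 10.7 CPM in DMSO and 23.9, 18.8 and 20.6 CPM in FAKi. Its log2 fold change of 0.71 ± 0.16 had an adjusted p of 0.00406 (edgeR, Benjamini-Hochberg), but did not reach the fold threshold. At an adjusted p alone, 6.35% of all genes were higher. *ID4* was level between treatments at day 14, with 106, 104 and 93.2 CPM in DMSO and 114, 104 and 96.4 CPM in FAKi. Its log2 fold change was 0.04 ± 0.10 (adjusted p = 0.866).

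At day 3 the order was another. *ID4* held 41.3, 31.7 and 34.6 CPM in DMSO and 55.4, 66.9 and 66.1 CPM in FAKi, again without overlap. The log2 fold change was 0.82 ± 0.16 and did not pass after adjustment (edgeR adjusted p = 0.0945). *BAMBI* was at 73.5, 68.7 and 83.1 CPM in DMSO and 85.99, 109 and 100 CPM in FAKi, a log2 fold change of 0.41 ± 0.16 (edgeR adjusted p = 0.166).

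No gene of the list or of the 22846 tested was called at day 3 by edgeR, 0% of all. The smallest adjusted p was 0.0716, while 23.8% of all genes, and 2 of the 7 tested members, had an unadjusted p under 0.05. DESeq2 called 755 genes at day 3, 5 of them from the pathway list and none of the 7 members. Without DMSO day 3 replicate 1, edgeR called 2765 genes, 8 of them from the list and none of the 7 members. In that fit *ID4* had an adjusted p of 0.000613 at a log2 fold change of 0.94, just under the fold threshold. *ID4*, *BAMBI* and *TGFB2* were the 3 of 7 with every FAKi library above every DMSO library, against 15.1% of all genes. *ID1* and *ID3* overlapped between treatments, with log2 fold changes of 0.25 ± 0.19 and 0.30 ± 0.18.

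Day 7 depended on a single library. *ID1* held 11.4, 17.3 and 15.4 CPM in DMSO and 24.7, 16.8 and 12.8 CPM in FAKi, *ID3* 36.4, 48.0 and 49.4 CPM against 66.7, 44.2 and 31.2 CPM, and *ID4* 58.3, 69.8 and 64.8 CPM against 117, 54.2 and 54.1 CPM. The first FAKi replicate was the high one in each case. The log2 fold changes of 0.30 ± 0.26, 0.08 ± 0.26 and 0.22 ± 0.28 became 0.01, -0.25 and -0.26 without it. Those of *SMAD6* and *SMAD7*, 0.45 ± 0.38 and 0.17 ± 0.24, became -0.11 and -0.03.

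None of the 7 tested members was called at day 7, where 6 genes or 0.0269% of the 22299 tested were called. None of these 7 had an unadjusted p under 0.05, against 8.77% of all genes. None had every FAKi library above every DMSO library, against 8.25%. *BAMBI* was at 59.1 CPM in the first FAKi replicate, below its range of 80.5 to 84.6 CPM in DMSO, and its 2 other FAKi replicates were at 94.1 and 88.2 CPM.

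By day 21 the ID genes other than *ID2* were close between treatments. *ID1* was at 25.1, 23.2 and 11.6 CPM in DMSO and 20.5, 23.4 and 18.6 CPM in FAKi (log2 fold change 0.12 ± 0.26). *ID3* was at 58.5, 48.9 and 30.5 CPM in DMSO and 51.9, 58.9 and 48.1 CPM in FAKi (0.26 ± 0.22). In both genes DMSO replicate 3 was the low library, and without it the log2 fold changes were -0.15 for *ID1* and 0.04 for *ID3*. *ID4* was at 40.3, 35.9 and 37.4 CPM in DMSO and 34.8, 37.4 and 32.0 CPM in FAKi, a log2 fold change of -0.08 ± 0.13.

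**Figure D2:**
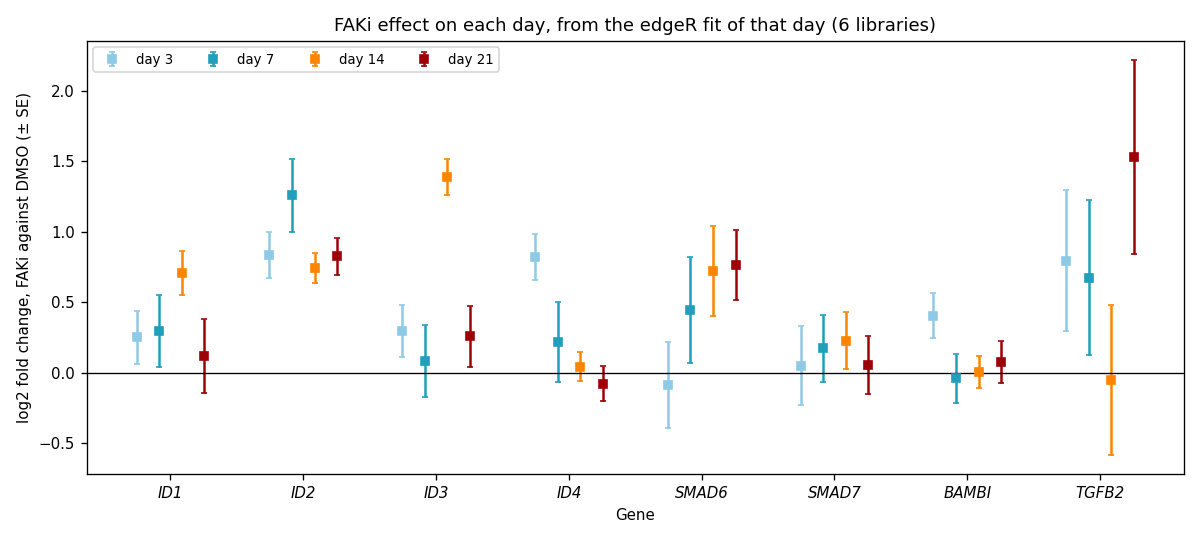
Log2 fold change of FAKi against DMSO (vertical axis) for each of the 8 genes (horizontal axis) at days 3, 7, 14 and 21, with bars of 1 SE from the edgeR fit of the 6 libraries of that day. *ID2* lies between 0.74 and 1.26 on all days, *ID3* stands at 1.39 on day 14 only, and *TGFB2* has the widest bars.

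Averaged over the days, *SMAD7* (log2 fold change 0.12) and *BAMBI* (0.11) moved less than the ID genes (0.25 to 0.91). *SMAD6* (0.46) lay within the range of the ID genes. *SMAD6*, which blocks the BMP branch, was at 3.78, 2.22 and 1.89 CPM in DMSO and 5.74, 4.25 and 3.06 CPM in FAKi at day 14 (log2 fold change 0.72 ± 0.32, edgeR adjusted p = 0.156). At day 21 it was at 2.35, 2.33 and 1.57 CPM in DMSO and 3.40, 3.81 and 3.10 CPM in FAKi, without overlap (0.77 ± 0.25, adjusted p = 0.076). *SMAD6* was called at day 14 when DMSO replicate 1 was left out, with a log2 fold change of 1.08.

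*SMAD7*, which blocks both branches, had log2 fold changes of 0.05 ± 0.28, 0.17 ± 0.24, 0.23 ± 0.20 and 0.06 ± 0.21 at the 4 days, and its treatments overlapped on every day. Its lowest library was at 3.52 CPM and its highest at 9.08 CPM. *BAMBI*, whose protein resembles a type I receptor without a kinase, was within 0.08 of no change at days 7, 14 and 21, with log2 fold changes of -0.04 ± 0.17, 0.01 ± 0.11 and 0.08 ± 0.15. At day 21 *BAMBI* was at 111, 98.4 and 75.2 CPM in DMSO and 99.1, 95.5 and 94.4 CPM in FAKi.

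*TGFB2* was measured on few counts. At day 21 the DMSO libraries had 3, 1 and 6 counts and the FAKi libraries 7, 8 and 16, which is 0.0859, 0.0568 and 0.278 CPM against 0.301, 0.423 and 0.459 CPM. All FAKi libraries were higher, but the log2 fold change of 1.53 ± 0.69 did not pass (edgeR adjusted p = 0.161). It was called at 2.40 when DMSO day 21 replicate 3, which had 6 counts, was left out. At day 3 the counts were 23, 7 and 5 in DMSO and 12, 7 and 9 in FAKi, and in CPM the treatments did not overlap (0.79 ± 0.50, adjusted p = 0.351). At day 14 the log2 fold change was -0.05 ± 0.53.

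At day 14, 2 of the 7 members other than *ID2* had every FAKi library above every DMSO library, against 15.1% of all genes, and at day 21, 2 of 7 against 16.5%. At day 21 none of the 7 members was called, where 2.58% of all genes were called higher. Without DMSO day 21 replicate 3, 4248 genes were called in place of 1226, and *TGFB2* was the one member among them. In each of the 4 days 6 of these 7 members had a log2 fold change above 0, against 48.3%, 52%, 49.3% and 50.8% of all genes at days 3, 7, 14 and 21. The member below 0 was *SMAD6*, *BAMBI*, *TGFB2* and *ID4* in turn. At day 7 the tally was 3 of 7 without FAKi replicate 1, and at day 21 it was 4 of 7 without DMSO replicate 3.

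Averaged over the 4 days in 1 fit of 24 libraries, none of the 7 members was called under both thresholds, against 1.89% of the 27897 genes tested. *ID3* had an adjusted p of 0.00367 at a log2 fold change of 0.50 ± 0.11, a 1.42-fold rise. At an adjusted p alone 6.96% of genes were higher. *ID1* (0.34 ± 0.12, adjusted p = 0.053), *SMAD6* (0.46 ± 0.17, adjusted p = 0.0724), *TGFB2* (0.73 ± 0.30, adjusted p = 0.0924) and *ID4* (0.25 ± 0.10, adjusted p = 0.0938) did not pass. *SMAD7* at 0.12 ± 0.12 and *BAMBI* at 0.11 ± 0.079 were nearest to no change. Without the 3 libraries that stood apart, *TGFB2* was called at 1.09 (edgeR adjusted p = 0.0111), *ID4* had an adjusted p of 0.0363 at 0.16, and *ID1* fell to 0.18. In that fit 1037 of 27356 genes were called.

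The effect on *ID3* differed between days in the test of the day by treatment terms (edgeR adjusted p = 0.0214), a test that 10.3% of all genes passed. It was lost when any 1 of 4 day 14 libraries was left out (DMSO replicates 2 and 3, FAKi replicates 1 and 2). *ID4* missed this test with all libraries (adjusted p = 0.108) and passed it without FAKi day 7 replicate 1 (adjusted p = 0.000986). In that fit 4486 of 27786 genes passed. Without the 3 libraries that stood apart, *ID3* (adjusted p = 4.05e-06), *ID4* (adjusted p = 9.65e-06) and *ID1* (adjusted p = 0.0151) all passed. So did 10510 of the 27356 genes tested in that fit. *SMAD7* was the member furthest from passing, at an adjusted p of 0.963.

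Over the 27 libraries, *ID1* and *ID3* had a Pearson r of 0.906 in log2 CPM, and 0.863 after the mean of each day was removed. *ID2* and *ID4* had an r of 0.723, and 0.539 within days. The other ID pairs were lower over the 27 libraries, at 0.623 for *ID1* and *ID2* and 0.583 for *ID2* and *ID3*. *ID4* had an r of 0.22 with *ID1* and 0.247 with *ID3*. Within days the order was another, at 0.672 for *ID1* and *ID2* and 0.602 for *ID2* and *ID3*, both above *ID2* and *ID4*. The within-day r of *ID4* was 0.447 with *ID1* and 0.392 with *ID3*. These are descriptions over libraries that share treatments and days. The 5 genes whose profile was most like *ID2* among 16981 others were *NREP* (r = 0.949), *SLC25A16* (0.944), *STARD4-AS1* (0.938), *ACSL5* (0.937) and *MAF* (0.93). The members stood further down, with *ID4* at rank 531, *SMAD6* at 907, *ID1* at 1206, *ID3* at 1541, *SMAD7* at 2756 and *BAMBI* at 10182. *TGFB2* was below the mean of 1 CPM that this ranking needed.

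**Figure D3:**
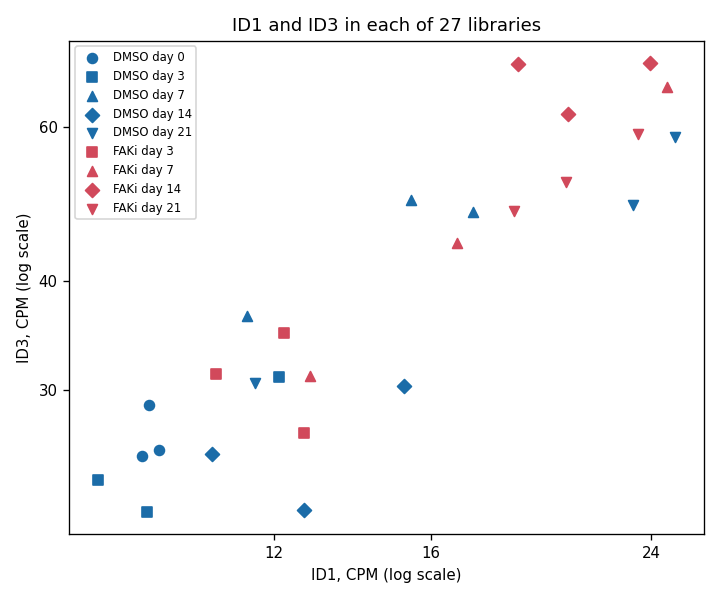
*ID3* against *ID1* in CPM (both axes log scale), with one point per library, blue for DMSO, red for FAKi and a shape per day. The points rise together (r = 0.906 over 27 libraries), and the 3 FAKi day 14 diamonds lie at 62.1 to 71.001 CPM of *ID3*, above the DMSO day 14 diamonds at 21.9 to 30.3 CPM.

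The wider network was described with a list of 76 further genes by role, of which 66 passed the count filter in the fit over 4 days. Under both thresholds 2 of these 66 were called higher in the mean effect, *NOG* and *THBS1*. Of all 27897 genes tested, 245 were called higher, and 1.89% were called in either direction. At an adjusted p alone 9 were higher and 8 were lower, against 15.7% of all genes in either direction. The median log2 fold change of the 66 was -0.06, beside 0.01 over all genes, and that of the 7 tested members was 0.34.

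Ligands and receptors moved in both directions. *BMP4*, a BMP ligand, was at 25.2, 22.7 and 27.02 CPM in DMSO and 19.5, 19.7 and 20.8 CPM in FAKi at day 14, and at 9.73, 8.29 and 9.26 CPM in DMSO and 17.4, 18.0 and 18.2 CPM in FAKi at day 21. FAKi was therefore below DMSO on the first of these days (log2 fold change -0.33 ± 0.13, edgeR adjusted p = 0.105) and rose 2.03-fold on the second (1.02 ± 0.14, adjusted p = 0.00703). *BMPR1B*, a type I receptor for BMPs, fell at day 21, from 3.58, 3.64 and 3.57 CPM in DMSO to 0.775, 1.22 and 0.487 CPM in FAKi (-2.11 ± 0.35, adjusted p = 0.0119). The *BMPR1B* call was lost in 3 of 6 fits that left out 1 library, at adjusted p of 0.0516 to 0.0611, and the *BMP4* call in 3 of 6.

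The receptor genes *TGFBR2* and *TGFBR3*, the latter encoding the co-receptor betaglycan, had mean log2 fold changes of 0.50 ± 0.12 (edgeR adjusted p = 0.00517) and 0.79 ± 0.15 (adjusted p = 0.00129), and both were above 0 on all 4 days. The BMP ligand gene *BMP6* (-0.61 ± 0.16, adjusted p = 0.00905) and the activin receptor gene *ACVR2B* (-0.27 ± 0.080, adjusted p = 0.0209) were lower. These 4 genes passed the adjusted p but not the fold threshold, and were named after their values had been seen. None of 6 tested TGF-beta and activin ligands other than *TGFB2* passed.

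*SMAD9*, one of the transducers of the BMP branch, rose at day 14, from 7.14, 6.22 and 4.54 CPM in DMSO to 10.6, 12.9 and 16.4 CPM in FAKi (log2 fold change 1.15 ± 0.20, 2.22-fold, edgeR adjusted p = 0.000666). It fell short of the fold threshold, at 0.97 at the lowest, in 2 of 6 fits that left out 1 library. Its treatments did not overlap at days 3, 7 and 14. At day 21 it was at 2.00, 3.92 and 3.94 CPM in DMSO and 3.53, 3.54 and 4.16 CPM in FAKi (0.25 ± 0.30). The 5 other SMAD transducers did not pass in the mean effect.

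Among the secreted antagonists, *NOG*, which encodes the BMP trap noggin, had 15, 1 and 4 counts in DMSO and 202, 121 and 116 counts in FAKi at day 14, or 0.472, 0.0317 and 0.131 CPM against 6.07, 4.21 and 4.55 CPM (log2 fold change 4.51 ± 0.52, edgeR adjusted p = 5.7e-06). At day 7 the FAKi libraries had 119, 3 and 4 counts, the 119 in replicate 1, the library that resembles day 14. At days 3 and 21 *NOG* had at most 16 counts in any library. Its mean effect of 1.63 ± 0.53 (adjusted p = 0.0369) fell to 0.74 and was lost (adjusted p = 0.187) without FAKi day 7 replicate 1. In all, the *NOG* call in the mean effect was lost in 12 of 24 fits that left out 1 library, at adjusted p of 0.0518 to 0.187. *FST*, for the activin antagonist follistatin, had a mean log2 fold change of 0.87 ± 0.19 (adjusted p = 0.00389), short of the fold threshold.

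Genes of latency and activation, which hold TGF-beta inactive or release it, included *LTBP1* and *THBS1*. *LTBP1* fell at day 14, from 1.98, 3.02 and 2.19 CPM in DMSO to 0.992, 0.939 and 0.940 CPM in FAKi (log2 fold change -1.32 ± 0.41, edgeR adjusted p = 0.0375), a call lost in 4 of 6 fits that left out 1 library. *THBS1* had no count in the 3 DMSO libraries of day 14 and of day 21, and 13, 7 and 5 counts and then 4, 1 and 5 counts in FAKi. Its mean effect was called (adjusted p = 0.0037), but no fold is given at such counts.

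*LDLRAD4*, an intracellular inhibitor of TGF-beta signalling, fell at day 21, from 2.49, 3.12 and 3.47 CPM in DMSO to 1.08, 0.952 and 1.06 CPM in FAKi (log2 fold change -1.496 ± 0.27, edgeR adjusted p = 0.0165). The *LDLRAD4* call was lost in 4 of 6 fits that left out 1 library, at adjusted p of 0.0643 to 0.096. *CCN2*, a target of TGF-beta and of YAP, was at 2.35, 2.16 and 3.29 CPM in DMSO and 0.516, 0.529 and 0.344 CPM in FAKi on the same day (-2.46 ± 0.35, a 5.5-fold fall, adjusted p = 0.0075), a call lost in 2 of 6 such fits. The *CCN2* libraries overlapped at day 14, at 1.26, 0.444 and 0.0979 CPM in DMSO and 1.11, 1.36 and 1.097 CPM in FAKi. Among TGF-beta target genes, *CDKN2B*, for a cyclin-dependent kinase inhibitor, was lower in the mean effect at an adjusted p alone (-0.52 ± 0.14, adjusted p = 0.0147), and of the 4 BMP target genes tested, 1 was higher (*MSX2*, 0.37 ± 0.092, adjusted p = 0.00827). Neither E-protein gene tested, from the partners of the ID proteins, passed in the mean effect.

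By day, 4 of 61 tested pathway genes were called at day 14 and 4 of 58 at day 21. The backgrounds over all genes were 1.66% and 5.28%. The fits that left out 1 library changed the number of calls among the list at every day.

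**Figure D4:**
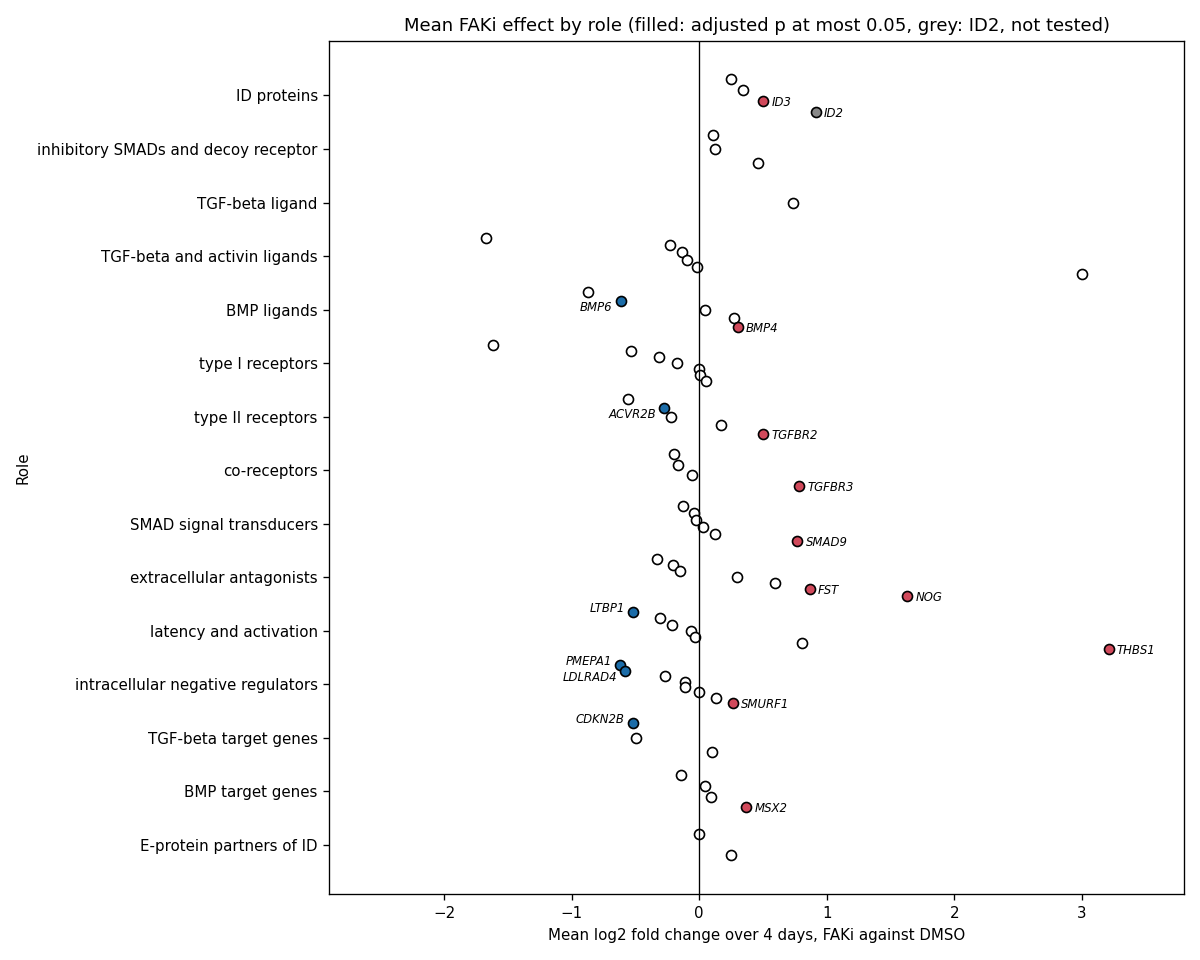
Mean log2 fold change of FAKi against DMSO over days 3, 7, 14 and 21 (horizontal axis) for 72 genes of the list, grouped by role (vertical axis), with red and blue points for genes higher or lower at an adjusted p of at most 0.05, open points for the rest and grey for *ID2*, which was not tested. The 4 ID genes all lie to the right of 0, *NOG* stands at 1.63, and the point of *THBS1* rests on few counts.

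**Figure D5:**
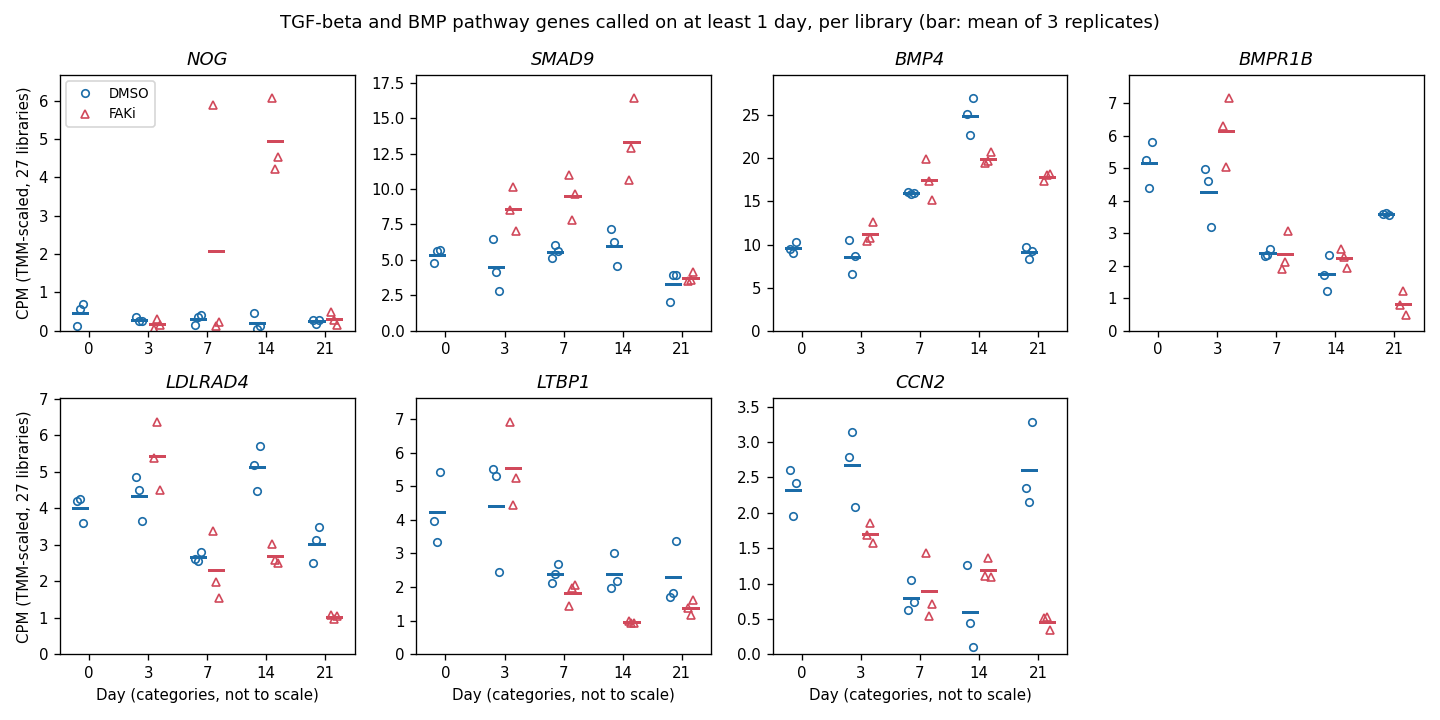
Expression in CPM (vertical axes, starting at 0) of 7 pathway genes called on at least 1 day, by day (horizontal axes), with circles for DMSO, triangles for FAKi and bars for the mean of 3 replicates. *NOG* is high in the 3 FAKi libraries of day 14 and in 1 of day 7, and *BMP4* changes side between days 14 and 21.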

How the data were processed

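Reads of the 27 mRNA libraries (TruSeq stranded mRNA kit) were processed by the authors. The submitters' notes name Trim Galore, FastQC 0.11.8, STAR 2.5.3a, HOMER and DESeq2 with the hg38 build, and the deposited table holds raw exon counts of 1 transcript per gene (GENCODE annotation), without normalization. The strand setting of the counting is not given in the sources used here. All columns could be tied to samples by label, though the column and description of DMSO day 21 replicate 3 write the day with a 7 in front, where the title has day 21. Counts were analysed in R 4.3.3 with edgeR 4.0.16 (glmQLFit, glmQLFTest, TMM scaling), in place of DESeq2, which was run as an alternative (1.42.0). Genes with fewer than 20 counts over the fitted libraries were removed. Each day was fitted on its 6 libraries, the mean effect and the day by treatment test on 24, and DMSO across days on 15. Benjamini-Hochberg adjustment ran over all genes tested. Calls needed an adjusted p of at most 0.05 and, between treatments, an absolute log2 fold change over 1. CPM values use TMM factors over all 27 libraries. Scripts were tested on simulated data.

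The members, gene lists and tests were chosen with earlier results of these data known. Named were the 8 members, list genes called on at least 1 day or in the mean effect (some are not reported here), and the 5 genes most like *ID2* by Pearson r (log2 CPM, prior count 2, mean of at least 1 CPM). Same-numbered libraries of both treatments deviated together at day 21, with correlations of 0.443, 0.128 and 0.658 of their deviations from group means, and not at the other days (-0.144 to 0.107). The labels do not say that numbers mark a shared batch, and the pairing at day 21 is a hint from the data.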

Additional observations from a re-analysis of the deposited data

Results flagged for a closer look

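For 10 of the 73 list genes tested, the FAKi effect differed between days in edgeR's test of the day by treatment terms over 24 libraries. This was set against 10.3% of all genes. *ID3* (adjusted p = 0.0214) was the member among them, with values (log2 fold change, days 3, 7, 14 and 21 in order) of 0.30, 0.08, 1.39 and 0.26. *BMPR1B* (adjusted p = 0.00112) had 0.54, -0.04, 0.36 and -2.11, and *BMP4* (adjusted p = 0.00304) had 0.40, 0.13, -0.33 and 1.02. *TGFBR1* (adjusted p = 0.00879), a type I receptor gene, had 0.26, -0.03, -0.11 and -0.79.

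*LDLRAD4* (adjusted p = 0.00908) had 0.33, -0.21, -0.93 and -1.496, and *CCN2* (adjusted p = 0.0136) had -0.64, 0.16, 0.97 and -2.46. The co-receptor gene *ENG* (adjusted p = 0.0252) had -0.52, -0.01, 0.39 and -0.06. *ATOH8* (adjusted p = 0.0336), a BMP target gene, had -0.21, 0.02, 0.87 and -0.30. *NOG* (adjusted p = 0.0343) had -0.95, 2.76, 4.51 and 0.25, where the day 7 value rests on 1 library. *ACVR2B* (adjusted p = 0.0366) had 0.24, -0.32, -0.73 and -0.27.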

How the results depend on the processing

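The number of list genes called was 0, 1, 5 and 4 at days 3, 7, 14 and 21, 3 in the mean effect, 10 in the day by treatment test and 37 in DMSO across days, with *ID2* counted in the last alone. Over all genes the calls were 0, 6, 388 and 1226 by day, 528 in the mean effect, 2881 by day and treatment and 13074 in DMSO. At day 3 it was 4 without the count filter, 5 with DESeq2 and 2 with all 27 libraries in one fit. Over all genes these settings called 1181 of 35807, 755 of 17972 and 802 of 28164. At day 7 it was 2 without the filter and 0 with a replicate block, beside 220 of 33871 and 0 of 22299 over all genes. At an adjusted p alone it was 14 at day 14 and 18 in the mean effect, beside 2918 of 23443 and 4371 of 27897 over all genes. The day by treatment test gave 18 with DESeq2 and 33 without the 3 libraries that stood apart, an alternative chosen after seeing the data. Over all genes the same fits called 5219 of 21945 and 10510 of 27356. Leaving out 1 library gave 0 to 8, 0 to 1, 2 to 6 and 0 to 9 at the 4 days, 2 to 4 in the mean effect, 5 to 19 in the day by treatment test and 25 to 42 in DMSO. With the replicate block at day 21, 6 list genes were called in place of 4, beside 2076 in place of 1226 over all genes. No call of a member changed under the block on any day. Of 1002 values of members under the alternatives, 963 kept their direction and side of the threshold, 12 moved past the threshold, 4 fell short of it and 1 moved by over its spread. The other 22, from fits without 1 library and none of them called, changed sign. Over those fits the log2 fold change at day 3 ran from -0.15 to 0.33 in *SMAD7* and -0.25 to 0.14 in *SMAD6*. At day 7 it ran from -0.16 to 0.14 in *BAMBI*, -0.026 to 0.37 in *SMAD7*, -0.26 to 0.41 in *ID4*, -0.11 to 0.69 in *SMAD6* and -0.25 to 0.32 in *ID3*. At day 14 it ran from -0.071 to 0.12 in *BAMBI*, -0.61 to 0.34 in *TGFB2* and -0.021 to 0.099 in *ID4*, and at day 21 from -0.053 to 0.18 in *BAMBI*, -0.15 to 0.30 in *ID1* and -0.052 to 0.14 in *SMAD7*. The cause was not tested. Low counts limit *TGFB2*, *NOG* and *THBS1*.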
